A study of Mus musculus with 18 samples.

Results

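The response of wild-type Hepa-1c1c7 cells to TCDD (2,3,7,8-tetrachlorodibenzo-p-dioxin) was described across 18193 genes from 6 of the 18 expression arrays of the series, namely the 3 arrays labelled wild-type TCDD and the 3 labelled wild-type DMSO. Hepa-1c1c7 is a hepatoma line from the liver tumour of a male C57BL/6-derived mouse, and the cells were grown in alpha MEM with fetal bovine serum. One group received the vehicle DMSO and the other TCDD in DMSO, both for 8 hr, and total RNA was hybridized to Affymetrix mouse arrays. No dose stands in the labels of the TCDD-treated wild-type samples, and the study's methods give 5 nM. The other groups were wild-type cells given 5 µM BaP (benzo[a]pyrene) and *c*35 cells, a mutant derivative of Hepa-1c1c7 whose aryl hydrocarbon receptor (AHR) cannot bind DNA, given DMSO, TCDD or BaP. The study's methods call the 3 samples of a group biological replicates, and all came from 1 tumour line or its *c*35 derivative. The error of the main fit is shared by all 18 arrays. Its p-values therefore measure the spread between cultures of these related lines only.

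The AHR is a ligand-activated transcription factor of the bHLH-PAS family. Bound by TCDD, it moves to the nucleus, pairs with ARNT and binds DNA at xenobiotic response elements, whose core reads GCGTG. Its classic targets form the AHR gene battery, which encodes enzymes that oxidize and conjugate foreign chemicals in liver, and TCDD also disturbs retinoid stores, lipid metabolism, inflammation and growth in that organ.

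The wild-type DMSO and TCDD arrays correlated with each other at r = 0.991 to 0.997, and no arrays of the series held identical values. DMSO replicate 1 stood apart, with an SD around its group mean of 0.181 on the log2 scale against 0.117 to 0.141 on the other arrays of the comparison. Its *Actb* 3′ minus 5′ control signal, a sign of RNA breakdown, was also the largest, at 1.38 on the log2 scale, where the TCDD arrays ran from 0.73 to 1.21 and the remaining DMSO arrays from 0.81 to 0.85. With that control difference as a covariate 84 genes rose and 21 fell, beside 73 and 16 without it. Of the hepatocyte markers, *Alb* had a mean log2 signal of 13.64 in DMSO, *Afp* 12.11, *Ttr* 6.73, *Hnf4a* 6.29, *Apoa1* 5.85, *Apob* 5.49 and *Foxa3* 4.35. Of markers of other cells, the fibroblast genes *Dcn*, *Col3a1*, *Pdgfrb* and *Col1a1* had 14.07, 11.76, 10.66 and 10.55. In the same list *Acta2*, *Des*, *Col1a2* and *Lrat* had 7.37, 6.66, 5.66 and 2.70. The macrophage receptor gene *Csf1r* had 10.73, and the macrophage markers *Cd68*, *Clec4f*, *Lyz2*, *Adgre1* and *Marco* 7.30, 5.99, 5.72, 4.94 and 4.81. *Ptprc*, which defines leukocytes, had 2.93. Of the endothelial markers, *Kdr*, *Lyve1*, *Stab2*, *Pecam1*, *Cdh5*, *Vwf* and *Tek* had 6.15, 5.75, 5.20, 4.15, 4.13, 3.37 and 3.03. The cholangiocyte markers *Krt7*, *Sox9*, *Epcam*, *Krt19* and *Cftr* had 11.00, 7.87, 6.59, 4.87 and 3.12. Signals of different probe sets cannot be ranked against each other, so no marker could be called absent from its signal alone. None of the 34 cell type markers measured was called with TCDD by its highest-mean probe set.

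TCDD changed 89 genes, or 0.489% of those measured, of which 73 rose and 16 fell, and no gene had probe sets called in both directions. Since bulk RNA was measured, a change in each cell and a change in some cells only cannot be told apart. A call needed an adjusted p below 0.05 from limma, fitted to all 18 arrays and adjusted over 45037 probe sets, together with a change above 1.5-fold. The calls comprised 107 probe sets that rose and 28 that fell, of which 9 and 11 carried no single gene symbol and were counted for no gene. On each of these 135 probe sets the TCDD and DMSO arrays did not overlap. By the probe set with the highest mean signal, from which the values below come unless stated, 62 genes rose (0.341%) and 7 fell (0.0385%), and the arrays did not overlap at 18.3% of all genes, called or not. The changes were mostly small, with 19 genes above 2-fold among those that rose and 1 among those that fell. Only 7 of the 89 belonged to the AHR gene battery, so that 82 genes, 66 of them risen, lay outside it. A further 118 genes passed the adjusted p of 0.05 with a change below 1.5-fold, 77 of them higher and 41 lower.

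**Figure D1:**
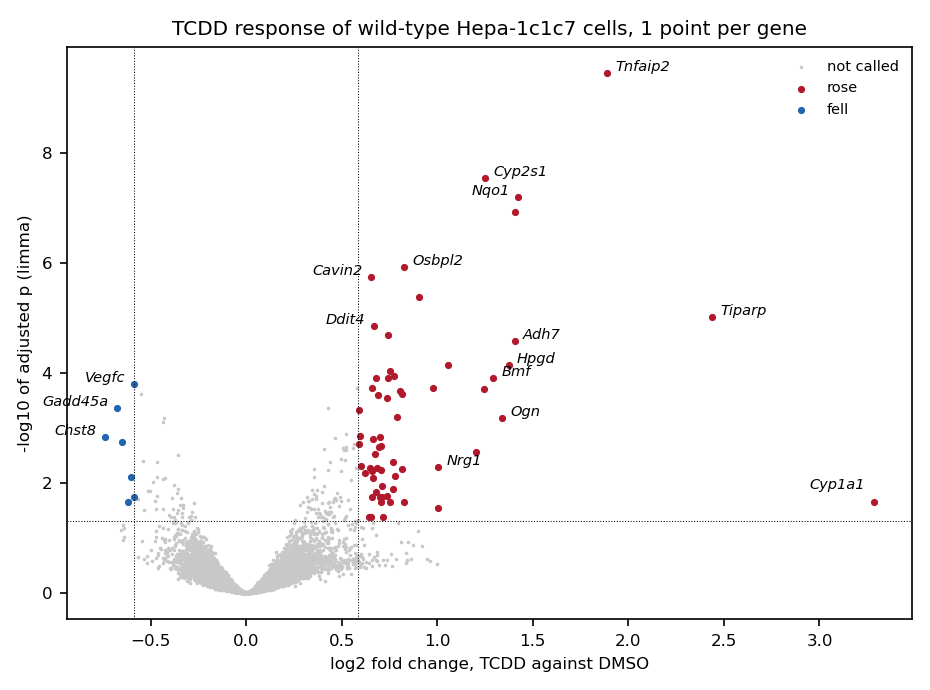
Each point is 1 gene by its highest-mean probe set, with the log2 fold change of TCDD against DMSO on the x axis and -log10 of the adjusted p from limma on the y axis, and dotted lines mark the 1.5-fold change and the adjusted p of 0.05. The 62 genes that rose (red) reach further from 0 than the 7 that fell (blue), which all lie between -0.74 and -0.59.

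How many genes passed depended on single arrays. Without DMSO replicate 2 the count was 224 (177 rose, 47 fell), and it held 67 of the 73 risen and 15 of the 16 fallen genes. Without DMSO replicate 1 it was 71 (62 and 9), and without DMSO replicate 3 116 (85 and 31). The number that fell was 9 without DMSO replicate 1, against 47 without DMSO replicate 2, and fitting only the 6 arrays compared left 54 genes, 4 of them fallen. Across all 6 arrays left out in turn, 48 of the genes that rose and 6 of those that fell were called every time. Only *Tiparp*, *Tnfaip2*, *Nqo1*, *Aldh3a1*, *Adh7* and *Cyp2s1* were called under every setting tried, including a test against 1.5-fold.

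Of the 8 battery genes measured, 7 rose. *Cyp1a1*, which encodes the P450 that oxidizes aromatic hydrocarbons, had log2 signals of 9.61, 9.78 and 9.81 on the DMSO arrays (replicates 1 to 3) and 13.06, 12.92 and 13.07 on the TCDD arrays. It rose by 3.28 on the log2 scale (standard error, SE, 0.67, adjusted p = 0.0217 from limma). The wild-type arrays of each group lay within 0.20 of each other on the log2 scale, but the fitted error is shared with the *c*35 arrays, on which *Cyp1a1* ran from 4.87 to 8.34 in DMSO, and with the 6 arrays alone the adjusted p was 7.92e-07. *Tiparp*, whose product ADP-ribosylates and represses the AHR, had 9.05, 9.02 and 9.0 with DMSO and 11.48, 11.40 and 11.50 with TCDD, and rose by 2.44 (SE 0.24, adjusted p = 9.76e-06). *Nqo1* (quinone reductase), *Aldh3a1* (aldehyde dehydrogenase), *Cyp2s1*, *Xdh* (xanthine dehydrogenase) and *Cyp1b1* rose by 1.42, 1.41, 1.25, 1.25 and 1.0, and *Cyp1a2* had a log2 difference of 0.03 (adjusted p = 0.956). The *Cyp1a1* call was lost without DMSO replicate 1 (3.22, adjusted p = 0.0596), TCDD replicate 1 (3.26, adjusted p = 0.0856), TCDD replicate 2 (3.33, adjusted p = 0.0814) or TCDD replicate 3 (3.26, adjusted p = 0.0797). That of *Cyp1b1* was lost without any one of 5 arrays, all but DMSO replicate 1, with log2 changes of 0.93 to 1.07 and adjusted p of 0.0521 to 0.138. These fits also share their error with the *c*35 arrays, on which *Cyp1b1* had 6.09, 5.86 and 5.02 in DMSO. With the 6 arrays alone its call held (adjusted p = 0.011 from limma). Of the receptor complex and its repressor, 5 genes were measured, and 0 passed at an adjusted p below 0.05 by limma and 0 at an unadjusted p below 0.05.

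The letters GCGTG were looked for on both strands of the RefSeq promoter windows (GRCm38.p6), which hold 250 bases before and 50 after each start. Of the 73 genes that rose, 60 had a window, and 36 of these (60.0%, exact 95% interval 46.5 to 72.4%) held it. Of the fallen genes with a window 6 of 12 held it, and of all measured genes 6877 of 14368 (47.9%). The share among genes that rose was therefore above that of all genes, which lay inside the interval. The same 5 letters in another order, GTGCG, were in 30 of the 60 genes that rose and in 42.4% of all genes, and the median GC content of the windows was 61.3% and 58.3%. The longer form TNGCGTG was in 11.7%, 0 and 8.02% of the risen, fallen and all genes. These matches describe letters, not receptor binding, and overlap between the searched motifs was not removed. The following stretches are shown for genes whose changes are described here, in the direction of the gene, with every GCGTG, or CACGC where it lies on the opposite strand, in capitals.
Cyp1a1, chr9:57697539-57697583, plus strand, motif 54 bases before the start: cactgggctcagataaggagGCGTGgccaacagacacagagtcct
Tiparp, chr3:65528257-65528301, plus strand, motif 170 bases before the start: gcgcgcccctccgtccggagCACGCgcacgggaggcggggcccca
Tnfaip2, chr12:111442434-111442478, plus strand, motif 207 bases before the start: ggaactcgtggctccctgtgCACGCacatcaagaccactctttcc
Ddx58, chr4:40239943-40239987, minus strand, motif 142 bases before the start: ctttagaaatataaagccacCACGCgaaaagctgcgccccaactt
Ptges, chr2:30903438-30903482, minus strand, motif 165 bases before the start: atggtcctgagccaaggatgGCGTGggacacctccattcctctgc
Ddit4, chr10:59951861-59951905, minus strand, motif 115 bases before the start: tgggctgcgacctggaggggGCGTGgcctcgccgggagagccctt
Chst8, chr7:34812839-34812883, minus strand, motif 152 and 146 bases before the start: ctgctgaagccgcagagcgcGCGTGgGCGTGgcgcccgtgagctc
*Cyp1a1* is shown as the classic target, the 5 after it as genes that rose by different functions, and *Chst8* as a gene that fell.

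Of the genes of retinol and alcohol oxidation, *Adh7* was among the largest rises outside the battery and *Rdh10* among the largest falls. *Adh7*, the retinol-active alcohol dehydrogenase, had 7.45, 7.70 and 7.76 with DMSO and 8.93, 8.95 and 9.24 with TCDD. The groups stood apart by more than a log2 unit, and it rose by 1.40 (SE 0.15, adjusted p = 2.62e-05). *Adh1*, the main liver alcohol dehydrogenase, had 6.44, 6.59 and 6.48 with DMSO and 7.25, 7.28 and 7.08 with TCDD, again without overlap, and rose by 0.70 (SE 0.11, adjusted p = 0.00222). *Rdh10*, which makes retinal from retinol, moved the other way. Its values were 10.44, 10.40 and 10.42 with DMSO and 9.76, 9.86 and 9.70 with TCDD, within 0.16 of each other in each group, and it fell by 0.65 (SE 0.10, adjusted p = 0.00182). Of the 27 measured genes of retinoid and alcohol dehydrogenase metabolism these were the calls, 2 risen and 1 fallen, and the median log2 difference of the list was 0.02, beside 0.01 over all genes. *Rbp4*, the retinol carrier of plasma, was higher by 0.34 (adjusted p = 0.0196), below 1.5-fold.

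Prostaglandin E2 is made by a synthase and cleared by a dehydrogenase, and the genes of both rose. *Hpgd*, which encodes the dehydrogenase, had 3.42, 4.07 and 3.90 with DMSO and 5.20, 5.29 and 5.02 with TCDD. Its DMSO arrays spread over 0.65 but stayed below every TCDD array, and it rose by 1.37 (SE 0.16, adjusted p = 7.2e-05). *Ptges*, the prostaglandin E synthase gene, had 7.14, 7.15 and 7.09 with DMSO and 7.76, 7.65 and 7.85 with TCDD. It rose by 0.62 (SE 0.11, adjusted p = 0.00654), with no overlap, and the call was lost without TCDD replicate 3 (0.57, adjusted p = 0.0522). These were the 2 calls among 25 measured genes of prostaglandin and leukotriene metabolism, whose median was 0.11.

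*Tnfaip2*, a gene first known for its induction by tumor necrosis factor, showed the largest rise outside the battery. It had 7.10, 7.0 and 6.93 with DMSO and 8.94, 8.93 and 8.82 with TCDD. Both groups were tight and far apart, and it rose by 1.89 (SE 0.09, adjusted p = 3.6e-10). *Il1r1*, the signalling receptor of interleukin 1, had 5.93, 5.96 and 5.70 with DMSO and 6.51, 6.44 and 6.74 with TCDD, and rose by 0.70 (SE 0.14, adjusted p = 0.0176). The groups did not overlap, but the *Il1r1* call was lost without DMSO replicate 3 (0.62, adjusted p = 0.0715), TCDD replicate 1 (0.73, adjusted p = 0.0534) or TCDD replicate 3 (0.61, adjusted p = 0.0997). Both stood among 39 measured genes of TNF, NF-kB and inflammatory signalling, where none fell and the median was 0.08. In the same list the adhesion molecule gene *Vcam1* was lower by 0.43 (adjusted p = 0.00851) and the chemokine gene *Ccl20* higher by 0.47 (adjusted p = 0.019), both short of 1.5-fold.

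Of 21 measured interferon-stimulated genes, 2 rose. *Ddx58*, which encodes the RNA sensor RIG-I, had 8.82, 8.66 and 8.63 with DMSO and 9.51, 9.42 and 9.50 with TCDD, and rose by 0.78 (SE 0.09, adjusted p = 0.000113). *Usp18*, whose product strips ISG15 from proteins and dampens interferon signalling, had 9.20, 9.20 and 9.23 with DMSO and 9.73, 9.85 and 9.84 with TCDD. It rose by 0.59 (SE 0.08, adjusted p = 0.000469), just past the 1.5-fold limit, and fell short of it without TCDD replicate 2 (0.57, adjusted p = 0.00588) or TCDD replicate 3 (0.58, adjusted p = 0.00561). The list's median was 0.02. Called genes in no list, named here after their values were seen, were *Tlr7*, an RNA-sensing receptor (0.71), *Gsdmd*, the pore-forming gasdermin (0.66), *Dtx3l*, a ubiquitin ligase (0.59), and *Trim12c* (0.77), which form no tested group. Of the 6 fits with 1 array left out, *Gsdmd* was called in 6, *Dtx3l* and *Trim12c* in 4 and *Tlr7* in 2.

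Among the lists of cell death and stress, 1 gene of the BCL2 family, 1 heat shock gene and 2 of the ATF4-CHOP response rose, and 1 p53 target fell. *Bmf*, a proapoptotic BH3-only member of the BCL2 family, had 4.95, 4.87 and 4.74 with DMSO and 6.06, 6.28 and 6.09 with TCDD. The arrays did not overlap and it rose by 1.29 (SE 0.16, adjusted p = 0.000125), as the only call among 15 measured BCL2 family genes. Its other probe sets were not called and differed by 0.05 and -0.09. *Gadd45a*, a stress gene that p53 induces, had 7.93, 7.99 and 8.06 with DMSO and 7.38, 7.26 and 7.31 with TCDD, and fell by 0.67 (SE 0.09, adjusted p = 0.000433). It was the only call among 23 measured p53 targets, whose median was 0.10. *Ddit4*, which encodes an inhibitor of mTORC1, had 10.26, 10.14 and 10.22 with DMSO and 10.89, 10.90 and 10.85 with TCDD. The DMSO arrays lay within 0.12 of each other, and it rose by 0.67 (SE 0.07, adjusted p = 1.43e-05). *Chac1*, a glutathione-degrading enzyme gene induced by ATF4, had 6.76, 6.86 and 6.80 with DMSO and 7.51, 7.47 and 7.47 with TCDD, and rose by 0.68 (SE 0.08, adjusted p = 0.000125). *Ddit4* and *Chac1* were the 2 calls among 30 measured genes of the ATF4-CHOP and unfolded protein response, with a list median of -0.04. *Hspa4l*, of the HSP110 chaperone family, had 9.76, 9.70 and 9.78 with DMSO and 10.47, 10.58 and 10.60 with TCDD, and rose by 0.81 (SE 0.10, adjusted p = 0.000215), the only call among 29 heat shock genes and cochaperones. Called genes in no list, named after their values were seen, included *Ccng2*, a cyclin of growth arrest (0.67), and *Ndrg1*, a stress-responsive gene (0.66). No gene was called among 30 measured cyclins, CDK inhibitors and arrest genes or among 37 genes of DNA replication and mitosis. At an unadjusted p below 0.05 by limma these lists held 8 (26.7%) and 3 (8.11%), beside 14.3% of all genes. As few genes were called on the whole array (0.489%), lists of this size can hold none without differing from it.

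**Figure D2:**
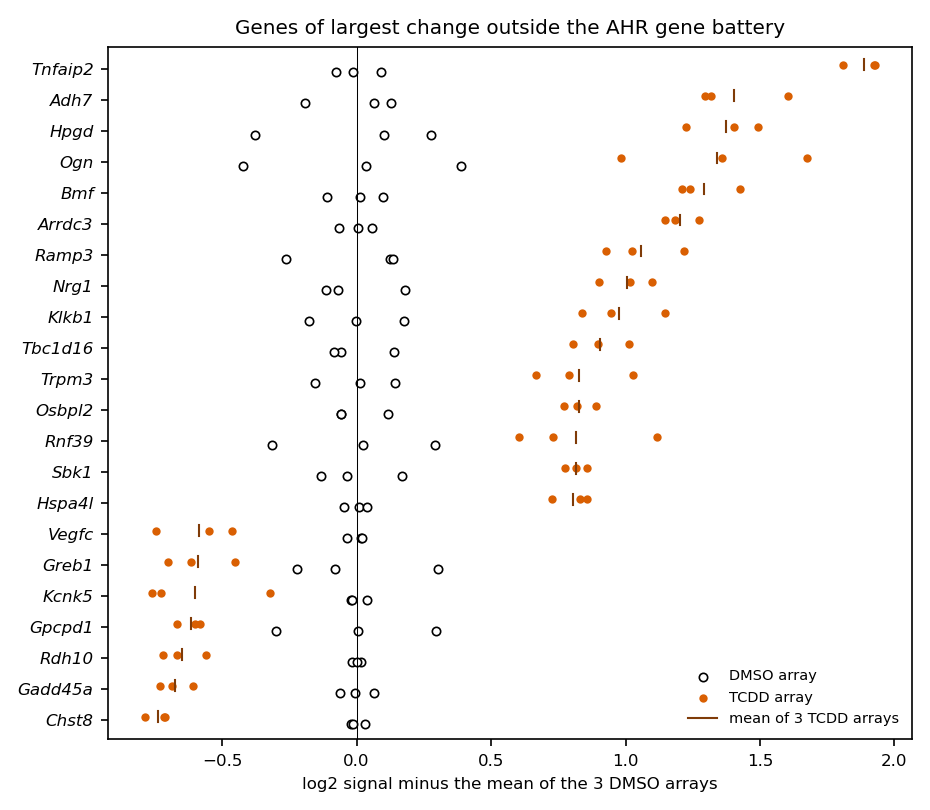
Each row is 1 of the 15 genes of largest rise or 7 of largest fall outside the AHR gene battery, with the log2 signal of each array minus the mean of the 3 DMSO arrays on the x axis (open points DMSO, filled points TCDD, tick the TCDD mean). Open and filled points do not overlap in any row, and *Tnfaip2* lies furthest to the right, at 1.89.

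Of 28 measured genes of the EGF family and MAP kinase feedback 1 rose, and of 28 angiogenic growth factors and receptors 1 fell. *Nrg1*, the neuregulin that activates ERBB3 and ERBB4, had 7.92, 8.17 and 7.87 with DMSO and 9.0, 8.89 and 9.08 with TCDD. It rose by 1.01 (SE 0.17, adjusted p = 0.00514). In the same list the phosphatase gene *Dusp16* was higher by 0.46 (adjusted p = 0.00151). *Vegfc*, a growth factor of lymphatic vessels, had 9.80, 9.75 and 9.81 with DMSO and 9.32, 9.24 and 9.04 with TCDD. The groups did not overlap and it fell by 0.59 (SE 0.07, adjusted p = 0.000161), but it fell short of 1.5-fold without DMSO replicate 1 (-0.58, adjusted p = 0.000472), DMSO replicate 3 (-0.58, adjusted p = 0.00159) or TCDD replicate 3 (-0.51, adjusted p = 0.00178). Among genes in no list, named for the size of their change, *Ramp3*, a partner of the calcitonin receptor-like receptor, had 7.31, 7.69 and 7.70 with DMSO and 8.78, 8.59 and 8.49 with TCDD, with DMSO replicate 1 lowest, and rose by 1.06 (SE 0.12, adjusted p = 7.26e-05). *Klkb1*, which encodes plasma prekallikrein, had 5.79, 5.61 and 5.44 with DMSO and 6.56, 6.76 and 6.45 with TCDD, and rose by 0.98 (SE 0.12, adjusted p = 0.000191). *Arrdc3*, an arrestin-like adaptor of receptor trafficking, had 5.70, 5.65 and 5.57 with DMSO and 6.82, 6.91 and 6.79 with TCDD. It rose by 1.20 (SE 0.19, adjusted p = 0.00273), with each group within 0.13.

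The remaining genes of largest change encode trafficking proteins, kinases, channels and enzymes. *Tbc1d16*, a Rab GTPase-activating protein gene, had 7.59, 7.79 and 7.56 with DMSO and 8.45, 8.66 and 8.54 with TCDD, and rose by 0.90 (SE 0.08, adjusted p = 4.13e-06). *Osbpl2*, of the oxysterol-binding protein family, had 8.98, 8.80 and 8.80 with DMSO and 9.75, 9.68 and 9.63 with TCDD, and rose by 0.83 (SE 0.07, adjusted p = 1.19e-06). Neither showed overlap, and both calls held in each fit with 1 array left out. *Sbk1*, a kinase gene, had 6.84, 7.04 and 6.74 with DMSO and 7.65, 7.69 and 7.73 with TCDD, and rose by 0.82 (SE 0.11, adjusted p = 0.000244). *Rnf39*, which encodes a RING finger protein, had 5.58, 5.92 and 6.19 with DMSO and 6.50, 6.63 and 7.02 with TCDD. Its DMSO arrays spread over 0.61, replicate 1 lowest, and it rose by 0.82 (SE 0.14, adjusted p = 0.00556). The cation channel gene *Trpm3* had 4.36, 4.19 and 4.49 with DMSO and 5.14, 5.02 and 5.38 with TCDD, and rose by 0.83 (SE 0.17, adjusted p = 0.0226). The groups did not overlap, the call was lost without DMSO replicate 1 (0.83, adjusted p = 0.0592), DMSO replicate 2 (0.75, adjusted p = 0.05), TCDD replicate 1 (0.85, adjusted p = 0.0743) or TCDD replicate 3 (0.73, adjusted p = 0.119), and the mean of its 6 probe sets differed by 0.04. Among falls, the potassium channel gene *Kcnk5* had 7.55, 7.61 and 7.55 with DMSO and 7.25, 6.81 and 6.84 with TCDD, and fell by 0.60 (SE 0.11, adjusted p = 0.00789). Here TCDD replicate 1 lay closest to the DMSO arrays, and the call was lost without DMSO replicate 2 (-0.58, adjusted p = 0.0259), TCDD replicate 2 (-0.52, adjusted p = 0.0695) or TCDD replicate 3 (-0.54, adjusted p = 0.0595). *Gpcpd1*, a glycerophosphocholine phosphodiesterase gene, had 8.19, 7.60 and 7.90 with DMSO and 7.32, 7.30 and 7.23 with TCDD, and fell by 0.62 (SE 0.13, adjusted p = 0.0226). *Greb1*, an estrogen-regulated growth gene, had 6.50, 5.97 and 6.12 with DMSO and 5.50, 5.74 and 5.58 with TCDD, and fell by 0.59 (SE 0.12, adjusted p = 0.0176). For both, DMSO replicate 1 was the highest array, and without it the log2 changes were -0.47 (adjusted p = 0.126) and -0.44 (adjusted p = 0.0983). The *Gpcpd1* call was also lost without DMSO replicate 3 or any TCDD array (-0.63 to -0.59) and that of *Greb1* without TCDD replicate 1 (-0.53) or 3 (-0.58).

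Of 41 measured genes of carbohydrate sulfation and proteoglycan synthesis 1 rose and 1 fell by the highest-mean probe set, and the fall was the largest of all genes by that probe set. *Chst8*, which adds sulfate to N-acetylgalactosamine on glycoprotein hormones, had 6.71, 6.66 and 6.66 with DMSO and 5.96, 5.96 and 5.89 with TCDD. The arrays of each group lay within 0.08, and it fell by 0.74 (SE 0.11, adjusted p = 0.00147). *Ogn*, the small leucine-rich proteoglycan osteoglycin, had 5.55, 6.01 and 6.36 with DMSO and 6.96, 7.65 and 7.33 with TCDD. Its spread within groups was wide, 0.81 among DMSO arrays, but the groups did not overlap and it rose by 1.34 (SE 0.19, adjusted p = 0.000669). The list's median was -0.05. *Htra1*, a secreted serine protease gene, rose by 0.67, and no collagen, integrin or laminin gene was called among 45 measured. At an unadjusted p below 0.05 by limma 7 of the 45 differed (15.6%), beside 14.3% of all genes.

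Among genes of intermediary metabolism 1 rose in each of 3 lists. *Ppard*, a nuclear receptor of fatty acid catabolism, had 7.23, 7.20 and 7.20 with DMSO and 7.98, 8.03 and 7.88 with TCDD, and rose by 0.75 (SE 0.09, adjusted p = 9.12e-05). *Pfkfb3*, which sets the level of an activator of glycolysis, had 6.40, 6.09 and 6.37 with DMSO and 6.82, 7.18 and 7.13 with TCDD. It rose by 0.75 (SE 0.15, adjusted p = 0.0218), and the call was lost without DMSO replicate 2 (0.65, adjusted p = 0.0521), TCDD replicate 2 (0.68, adjusted p = 0.125) or TCDD replicate 3 (0.71, adjusted p = 0.0953). *Cpox*, coproporphyrinogen oxidase of haem synthesis, had 8.91, 8.77 and 9.30 with DMSO and 9.39, 10.004 and 9.73 with TCDD. The DMSO arrays reached 9.30 and TCDD replicate 1 read 9.39, so that the groups were just apart, and it rose by 0.71 (SE 0.14, adjusted p = 0.0177), with the call lost without DMSO replicate 1 (0.67, adjusted p = 0.0581), TCDD replicate 2 (0.56, adjusted p = 0.127) or TCDD replicate 3 (0.70, adjusted p = 0.0721). The lists of fatty acid metabolism (38 measured), glycolysis and gluconeogenesis (32) and haem and iron (23) had medians of 0.01, -0.06 and 0.03. Further enzymes that rose were *Tpmt*, thiopurine methyltransferase (0.70), *Vnn1*, a pantetheinase (0.71), and *Entpd2*, an ectonucleotidase (0.70).

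Of 23 measured genes of the immediate early list 2 rose. *Ier3*, an immediate early stress gene, had 10.94, 11.21 and 11.17 with DMSO and 11.83, 11.75 and 11.88 with TCDD, and rose by 0.71 (SE 0.13, adjusted p = 0.0112). *Maff*, a small MAF factor, had 8.96, 9.25 and 9.26 with DMSO and 9.68, 9.82 and 9.74 with TCDD, and rose by 0.59 (SE 0.09, adjusted p = 0.00138). The call of *Ier3* was lost without TCDD replicate 1 (0.71, adjusted p = 0.0526) or TCDD replicate 3 (0.68, adjusted p = 0.0614), and that of *Maff* without DMSO replicate 1 (0.50, adjusted p = 0.00418) or TCDD replicate 2 (0.56, adjusted p = 0.0145). The list's median was 0.17. *Id2*, an inhibitor of bHLH factors, had 8.83, 9.27 and 9.37 with DMSO and 9.71, 9.84 and 9.97 with TCDD, with DMSO replicate 1 lowest, and rose by 0.68 (SE 0.12, adjusted p = 0.0053), falling short of 1.5-fold without DMSO replicate 1 (0.52, adjusted p = 0.0166). *Hlf*, a PAR bZIP factor with circadian expression, had 6.57, 6.97 and 7.11 with DMSO and 7.42, 7.92 and 7.52 with TCDD. It rose by 0.74 (SE 0.15, adjusted p = 0.0171), with DMSO replicate 3 and TCDD replicate 1 only 0.31 apart, and the call was lost without DMSO replicate 1 (0.58, adjusted p = 0.0951) or TCDD replicate 2 (0.59, adjusted p = 0.123). *Creb5* (0.68) and *Tshz2* (0.66), in no list, rose by their highest-mean probe set, and each was called in 3 of the 6 fits with 1 array left out. *Klf9*, a Kruppel-like factor, and *Foxq1*, a forkhead factor, were called by other probe sets than the highest-mean one (0.76 and 0.94 against 0.53 and 0.52).

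Across the 44 lists, 28 of 1101 measured genes rose and 4 fell, beside 62 and 7 of all 18193 genes. The 28 include 7 genes of the battery. Since the lists were written with earlier results of these data known, these counts do not measure an excess among listed genes. No gene was called among 22 glutathione transferases, 19 glucuronosyl- and sulfotransferases, 32 P450 genes outside the CYP1 family, 21 NRF2 antioxidant genes, 21 genes of cholesterol synthesis or 46 of the WNT pathway. At an unadjusted p below 0.05 these lists held 7, 3, 5, 8, 2 and 8 genes, or 31.8, 15.8, 15.6, 38.1, 9.52 and 17.4% of their measured members, beside 14.3% of all genes. The list medians outside the battery all lay between -0.11 and 0.17. Of listed genes, 26 passed the adjusted p of 0.05 with a change below 1.5-fold, 17 higher and 9 lower. The higher ones included *Gsta4*, a glutathione transferase (0.50, adjusted p = 0.00612), *Osgin1*, an oxidative stress gene (0.51, adjusted p = 0.00255), *Nr1h4*, the bile acid receptor (0.52, adjusted p = 0.0392), and *Klf2* (0.54, adjusted p = 0.0291). The lower ones included the activin antagonist *Fst* (-0.54, adjusted p = 0.00392), the kinase gene *Nuak2* (-0.53, adjusted p = 0.0312) and *Wnt6* (-0.47, adjusted p = 0.00789).

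**Figure D3:**
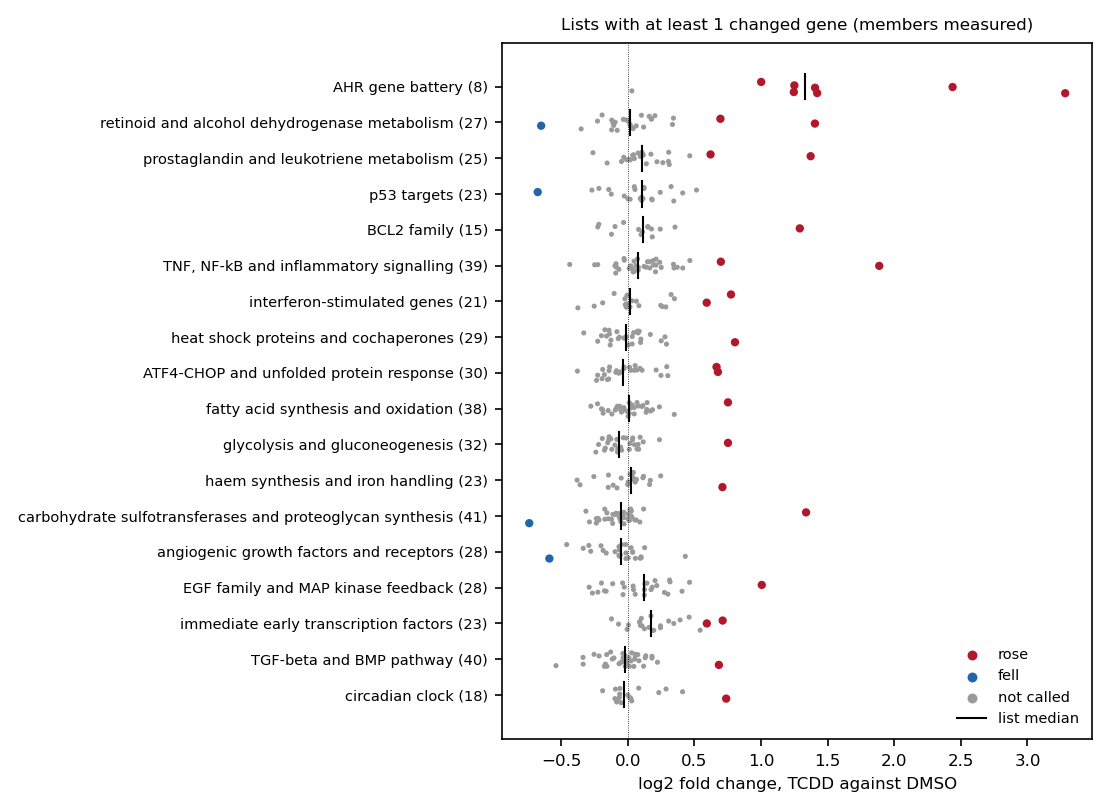
Each point is 1 measured gene of a list by the log2 fold change of its highest-mean probe set (x axis), for the 18 lists with at least 1 changed gene (number of measured members in brackets). Called genes (red rose, blue fell) are 1 to 3 per list outside the AHR gene battery, and black ticks, the list medians, lie near 0 except for the battery (1.33).

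Probe sets of a gene often differed. Of the 73 genes that rose, 47 had several probe sets, of which 8 had all and 30 only 1 called, and in 37 all probe sets lay in the same direction. Of the 16 that fell, 14 had several probe sets, none had all and 13 only 1 called, and the exception was *Vegfc* with 2 of 3. *Hspa4l* was called by 5 of 5 probe sets, and *Tiparp* and *Cavin2*, a caveolar coat gene (0.65), by 3 of 3. At 9 genes that fell the highest-mean probe set was not called. *Fam107a* fell by 1.03 at its called probe set with -0.12 at the brighter one, *Dcn* by 0.72 against -0.17, *Epha7* by 0.84 against 0.08, and *Rasgrp3*, *Spata13*, *6030458C11Rik*, *Zfp950*, *Ikzf2* and *Npnt* by 0.83, 0.82, 0.76, 0.66, 0.63 and 0.60 at theirs. Of the 6 fits with 1 array left out, *Fam107a* and *Epha7* were called in 6, *Dcn* and *Rasgrp3* in 5, *Ikzf2* in 3, *6030458C11Rik*, *Zfp950* and *Npnt* in 2, and *Spata13* in 1. *Pitpnc1*, a lipid transfer protein gene, rose at 3 of 9 probe sets, by 1.13 at the one of largest change, with 0.22 at the brightest. *Tpmt*, *Tlr7*, *Tshz2*, *Creb5* and *Trim12c* were called by their brightest probe set only. Their other probe sets differed by 0.04 to 0.16, by -0.07 and 0.02, by -0.14 and -0.12, by 0.04 to 0.19 and by 0.04. Among others, *Bmf* (0.05 and -0.09 at the rest), *Il1r1* (0.01) and *Pfkfb3* (-0.07) were also called by the brightest only. Which transcript or sequence the disagreeing probe sets measure was not tested. By the mean of all its probe sets a gene was called in 53 cases (48 rose, 5 fell), and the calls of 13 named genes were lost, namely *Bmf* (0.42), *Trpm3* (0.04), *Cyp1b1* (0.51), *Ddx58* (0.58), *Il1r1* (0.35), *Pfkfb3* (0.34), *Ppard* (0.49), *Hlf* (0.52), *Ptges* (0.57), *Vegfc* (-0.55), *Kcnk5* (-0.41), *Gpcpd1* (-0.45) and *Greb1* (-0.33).

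**Figure D4:**
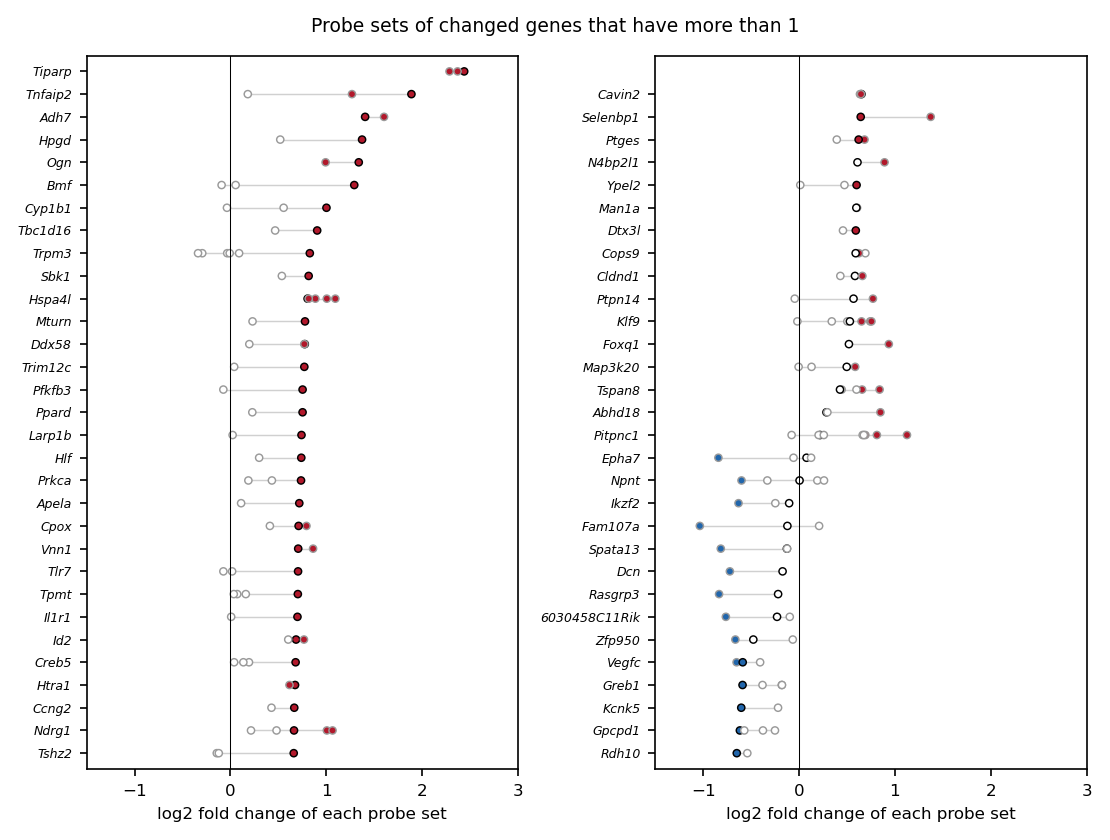
Each row is 1 changed gene with more than 1 probe set, and each point is a probe set by its log2 fold change (filled red rose, filled blue fell, open not called, black outline the highest-mean probe set). The 9 fallen genes from *Epha7* to *Zfp950* have an open black-outlined point closer to 0 than the filled one.

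The same genes were set beside the response of *c*35 cells, whose arrays took no part in the wild-type difference. They did take part in the fitted error behind the calls and in the choice of the highest-mean probe set. Of the 62 genes that rose by their highest-mean probe set, 44 had a log2 change below 0 in *c*35 cells and 18 above 0, with a median of -0.08, beside 0.74 in wild-type cells and 0.00 over all genes. Of all 18193 genes, 8843 were below 0 in *c*35 cells and 9350 above. At an unadjusted p below 0.05 by limma, 10 of the 62 differed in *c*35 cells, beside 939 of all 18193 genes. Of the 62, only *Apela*, *Cyp1a1* and *Tiparp* passed 1.5-fold in size in *c*35 cells, where 0.022% of all genes did. The last 2 were lower with TCDD (-1.35 and -0.71). *Cyp1a1* had log2 signals of 8.32, 8.34 and 4.87 on the *c*35 DMSO arrays and 5.39, 5.97 and 6.11 on the *c*35 TCDD arrays, so that its groups overlapped. Those of *Tiparp* overlapped too, with 10.36, 10.30 and 9.34 on the *c*35 DMSO arrays and 9.38, 9.24 and 9.25 on the *c*35 TCDD arrays. At both genes the lower value with TCDD came from DMSO replicates 1 and 2. Leaving out 1 *c*35 array at a time left the median between -0.10 and -0.06. For the 7 genes that fell, the median was -0.02 in *c*35 cells and -0.62 in wild-type cells.

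The difference in response between the lines was tested directly, and 0.33% of all genes passed an adjusted p of 0.05 by limma. The wild-type response within it also chose the genes, so the values are a description. *Tnfaip2* differed by 2.23 (adjusted p = 1.07e-08), with 9.62, 9.67 and 9.34 on the *c*35 DMSO arrays and 9.14, 9.23 and 9.26 on the *c*35 TCDD arrays, above every wild-type TCDD array. *Gadd45a* differed by -0.89 (adjusted p = 0.00202), with a *c*35 change of 0.21. *Apela*, which encodes a peptide ligand of the apelin receptor, had 7.54, 7.89 and 7.70 with DMSO and 8.45, 8.48 and 8.36 with TCDD in wild-type cells, and rose by 0.72 (SE 0.16, adjusted p = 0.0408). In *c*35 cells its signals were 4.69, 4.24 and 5.00 with DMSO and 5.11, 5.55 and 5.30 with TCDD, a change of 0.68 (adjusted p = 0.962), and the difference between lines was 0.04 (adjusted p = 0.986). The *Apela* call in wild-type cells held in only 1 of the 6 fits with 1 array left out.

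**Figure D5:**
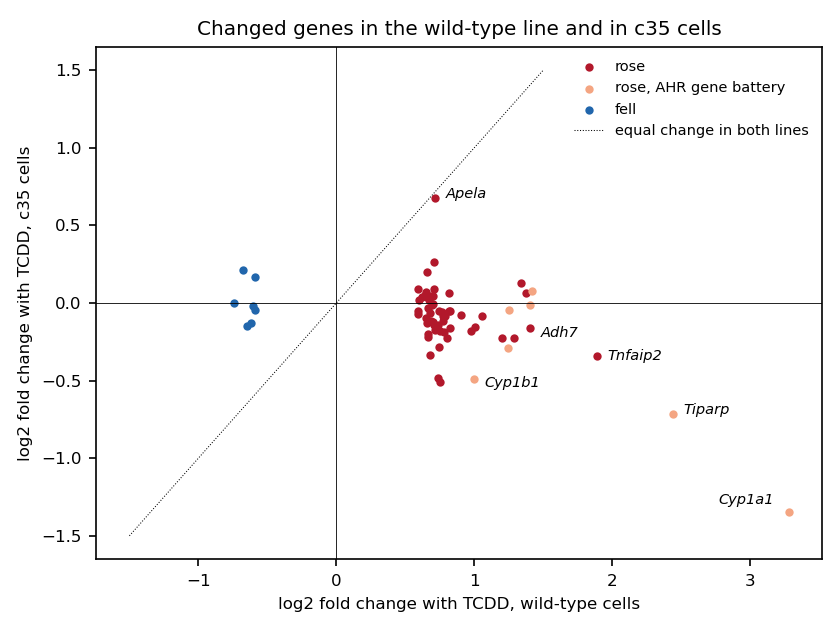
Each point is 1 of the 69 genes called by the highest-mean probe set, with the log2 fold change with TCDD in wild-type cells on the x axis and in *c*35 cells on the y axis. Most points lie near 0 on the y axis, whereas *Apela* lies on the dotted line of equal change.

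BaP, the other AHR ligand, was compared with the same 3 wild-type DMSO arrays, so its values share their error with those of TCDD and are given side by side only. The genes that rose had a median log2 change of 0.74 with TCDD and 0.90 with BaP, and the genes that fell -0.62 and -0.73. *Tnfaip2* changed by 1.89 with TCDD and 2.45 with BaP, *Bmf* by 1.29 and 2.05, *Arrdc3* by 1.20 and 1.91, and *Chst8* by -0.74 and -1.08. *Adh7* changed by 1.40 and 1.52, and *Nrg1* by 1.01 and 1.11. The change was larger in size with BaP at 46 of the 62 genes that rose and 6 of the 7 that fell, beside 9831 of all 18193 genes. Genes with a lower value with BaP included *Hlf* (0.74 and 0.33), *Adh1* (0.70 and 0.44) and *Creb5* (0.68 and -0.00). No difference between the ligands was tested here. The compounds were given at different doses.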

How the data were processed

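Total RNA of 18 samples in 6 groups of 3 was hybridized to Affymetrix mouse arrays. The authors deposited log2 signals of all arrays together. Per the submitters' processing notes they come from RMA (robust multiarray averaging), a method that subtracts background, equalizes the arrays and combines the probes of a probe set. For RMA no version is given in the sources used here. A probe set's log2 values compare arrays and not genes. RMA draws small changes of dim probe sets toward 0.

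The log2 values were used as deposited. Leaving out 64 Affymetrix controls, 45037 probe sets were tested, of which 34945 carried 1 gene symbol, 932 several and 9160 none in the platform annotation. The gene numbers of 18032 of the 18193 genes were found in the RefSeq table (GRCm38.p6), and no symbol differed. One mean per group was estimated from the 18 arrays together (R 4.3.3 with limma 3.58.1, tables read by data.table, version 1.17.8), with eBayes and an intensity trend. The Benjamini-Hochberg adjustment ran over all probe sets, with the criteria of the study (1.5-fold, adjusted p of 0.05). A named gene's value comes from whichever of its probe sets was brightest on average over the 18 arrays. Groups came from the sample titles and treatments, and the dose of the wild-type TCDD samples from the study's methods. No ChIP/chip data were analysed here.

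The genes given with a value on each array are the 15 of largest rise and up to 10 of largest fall outside the battery (7 qualified), with arrays not overlapping and unnamed clones passed over, the battery, and every called member of the 44 hand-written lists. Members and lists were chosen with earlier results of these data known, and *Klf9*, *Foxq1*, *Apela* and the other genes outside this rule were named after their values were seen. No set test was run. Promoter windows came from RefSeq.

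The alternatives were other fits (only the 6 or the 9 wild-type arrays, no intensity trend, array weights, an *Actb* covariate, a replicate block), other scalings (quantile, median), other probe set rules (above the median signal, mean per gene), no minimum change, a test against 1.5-fold, and fits without each array. The motif GTGCG was added after seeing the data. The fit was tested on simulated data. The number of arrays limits the precision, and same-numbered arrays were not treated as pairs. Python 3.11.15, pandas 2.3.3 and matplotlib 3.10.9 made the summaries and figures.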

Additional observations from a re-analysis of the deposited data

Results flagged for a closer look

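At 28 of the named genes the TCDD response differed between wild-type and *c*35 cells by limma's test of the difference, adjusted over all probe sets. The genes had been named for their change in wild-type cells, which is one side of this difference, and the part of the lower *Actb* 3′ minus 5′ signal of the *c*35 arrays (0.30 to 0.53, against 0.73 to 1.38 on the wild-type arrays) was not tested. In the battery the difference on the log2 scale (wild-type minus *c*35) was 4.63 for *Cyp1a1*, 3.15 for *Tiparp*, 1.54 for *Xdh*, 1.49 for *Cyp1b1*, 1.42 for *Aldh3a1*, 1.35 for *Nqo1* and 1.30 for *Cyp2s1*, with adjusted p from 7.05e-06 to 0.049. Of these, *Cyp1a1* rests on *c*35 DMSO arrays that spread from 4.87 to 8.34. On the *c*35 DMSO arrays (replicates 1 to 3) *Tiparp* had 10.36, 10.30 and 9.34, *Xdh* 9.60, 9.61 and 8.90, and *Cyp1b1* 6.09, 5.86 and 5.02. Replicate 3 was thus the lowest at each of these genes, and their differences rest partly on the higher replicates 1 and 2. Replicate 3 was also the lowest at *Nqo1*, *Aldh3a1* and *Cyp2s1*, and outside the battery at *Adh7* (8.65, 8.60 and 8.12) and *Tnfaip2* (9.62, 9.67 and 9.34). The same held at *Bmf*, *Arrdc3*, *Klkb1*, *Tbc1d16*, *Osbpl2*, *Sbk1*, *Hspa4l*, *Pfkfb3*, *Hlf*, *Ppard*, *Ddx58*, *Chac1* and *Ddit4*, whose differences share this limit. It did not hold at *Hpgd*, *Ramp3*, *Usp18*, *Maff* or *Vegfc*. At *Gadd45a*, which fell, replicate 3 was the highest (8.07, 8.07 and 8.43). The cause of this order was not tested.

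Among the other genes that rose in wild-type cells it was 2.23 for *Tnfaip2*, 1.57 for *Adh7*, 1.52 for *Bmf*, 1.42 for *Arrdc3*, 1.31 for *Hpgd*, 1.15 for *Klkb1*, 1.14 for *Ramp3*, 1.03 for *Hspa4l*, 0.98 for *Tbc1d16*, 0.88 for *Osbpl2* and 0.87 for *Sbk1*. The same difference was 1.26 for *Pfkfb3*, 1.22 for *Hlf*, 0.93 for *Ppard*, 0.89 for *Ddx58*, 0.74 for *Chac1*, 0.70 for *Ddit4*, 0.66 for *Usp18* and 0.64 for *Maff*. Among the genes that fell it was -0.89 for *Gadd45a* and -0.54 for *Vegfc*. Adjusted p in these 2 groups ran from 1.07e-08 to 0.0332.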

How the results depend on the processing

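The named genes kept their direction in every setting in which they had a value, except *Cyp1a2*, which was not called and ran from -0.0259 (without DMSO replicate 3) to 0.117 with 1 array left out, and also lay below 0 without TCDD replicate 1. Over these genes and settings, 654 values kept their direction and side of the threshold and 131 lost their call. The 89 changed genes (73 risen, 16 fallen) became 53 (48 and 5) with the probe sets of each gene averaged, 234 (160 and 74) with no minimum change, 54 (50 and 4) with only the 6 arrays compared, and 6 (6 and 0) in the test against 1.5-fold. The number that fell was 8 with the 9 wild-type arrays and 10 with probe sets above the median signal. With 1 array left out, 71 to 224 genes changed, 61 to 177 rose and 9 to 47 fell. Quantile normalization, median centring, array weights, the *Actb* covariate and no intensity trend gave 81 to 105 changed genes. With only the 6 arrays, 12 named genes lost their call, namely *Cpox*, *Gpcpd1*, *Greb1*, *Hlf*, *Id2*, *Il1r1*, *Kcnk5*, *Maff*, *Ogn*, *Pfkfb3*, *Rnf39* and *Trpm3*. The median of the fallen genes in *c*35 cells was 0.00378 after quantile normalization and -0.0616 to 0.00454 with 1 *c*35 array left out, so that it has no settled sign. The motif share was 11.7% with TNGCGTG. The labels do not say whether same-numbered arrays were prepared together. Deviations of same-numbered wild-type DMSO and TCDD arrays from their group means correlated at -0.06, -0.26 and 0.05, and those of differently numbered ones at -0.12 to 0.20. With 3 arrays per group the deviations depend on each other, so these values cannot decide whether the arrays are paired. The fit with the replicate number as a block called 82 genes (66 and 16), losing *Cyp1a1*, *Cyp1b1*, *Pfkfb3* and *Trpm3*. The cause of these differences was not tested. The number of arrays, 3 per group, limits the precision.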
